A study of Mus musculus with 2 samples.

Results

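T cells of mouse ileum that carried transcripts of Xcl1, Kit and Tcf7 were described in 2 single-cell libraries, 1 labelled Control and 1 labelled SAP. A barcode, the tag of 1 droplet, was a member when its UMIs (unique molecular identifiers, each standing for 1 captured transcript) of these 3 genes summed to at least 3, at least 2 of the 3 genes were found, and Cd4 had no UMI. By this rule 698 of the 10599 barcodes that passed the filters were members, 349 of 5634 in Control and 349 of 4965 in SAP. The levels of the 3 genes chose the members, so those levels are given as a description and nothing is tested on them.

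Xcl1 encodes a chemokine that draws in dendritic cells bearing the receptor XCR1. Kit encodes the receptor of stem cell factor, best known on mast cells, blood progenitors and some innate lymphoid cells. Tcf7 encodes TCF-1, a DNA-binding partner of beta-catenin that helps T cells to stay in a self-renewing, less differentiated state. Most T cells of the gut epithelium, in contrast, are killer cells that hold granzymes and the chemokine Ccl5, and many carry a gamma-delta receptor or CD8 made of alpha chains alone.

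The design text describes dendritic cells that took up phages of healthy mice or of SAP mice before they met gut T cells of GF mice. FucoID, a reaction that marks the surface of cells touching a dendritic cell, was used to tell antigen-engaged T cells from bystanders. Both libraries are labelled as ileum T cells, and the labels add only the words Control and SAP. The sources used here do not give the strain, age or sex of the mice, what SAP stands for, how many animals stand behind a library or which sorted fraction was loaded. With 1 library per group, any difference between Control and SAP has no replicate check, and its intervals cover counting error only.

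The libraries held 5737 and 5203 barcodes. Members were deeper than most barcodes, with a median of 4435 UMIs in Control and 4772 in SAP, against 3141.5 and 3409 over all barcodes that passed the filters. Each member was therefore paired with a barcode of its own library that had no UMI of Xcl1, Kit or Tcf7 and a total within 10%, here called a matched barcode. Pairs were found for 349 Control and 345 SAP members, and the matched medians were 4435 and 4755 UMIs. Matched barcodes could hold Cd4, which the rule kept out of members. Of the 3841 Control and 3293 SAP barcodes with no UMI of the 3 genes, 3685 and 3156 had no Cd4. The median share of mitochondrial UMIs was 1.08% in members against 0.902% in matched barcodes in Control, and 1.34% against 1.15% in SAP; its part in the results was not tested. No doublets were removed, since the automatic Scrublet threshold called 0 barcodes in either library. Among the 254 Control and 197 SAP barcodes with the highest Scrublet scores were 30 members and 28 matched barcodes in Control, and 31 and 20 in SAP. Of the barcode sequences, 6 occurred in both libraries and 0 of them were members in both.

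Members were 6.19% of Control barcodes (95% exact binomial interval 5.58 to 6.86) and 7.03% of SAP barcodes (6.33 to 7.78). The rule needs 3 UMIs, so this share moves with depth. After every barcode was thinned to 1000 UMIs the shares were 1.58% (1.26 to 1.96) in Control and 1.34% (1.03 to 1.72) in SAP, and at 2000 UMIs they were 3.67% (3.13 to 4.27) and 4.08% (3.47 to 4.76). The order of the libraries changed with the thinning and the intervals overlapped, so no difference in abundance was detectable.

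All 3 genes contributed members in both libraries. In Control, Xcl1 was found in 281 members with a median of 5 UMIs where found and a highest value of 150, Kit in 248 members and Tcf7 in 271, both with a median of 2. In SAP, Xcl1 was found in 299, Kit in 242 and Tcf7 in 254 members. The members held 61.2% of the Xcl1 UMIs of all Control barcodes that passed the filters and 60.7% in SAP, 39.0% and 40.9% of the Kit UMIs, and 47.0% and 49.2% of the Tcf7 UMIs. Xcl1 with Kit alone was found in 78 Control and 95 SAP members, Xcl1 with Tcf7 alone in 101 and 107, Kit with Tcf7 alone in 68 and 50, and all 3 genes in 102 and 97. Just inside the threshold, with a sum of 3, were 61 Control and 60 SAP members. Just outside were 79 and 70 barcodes with a sum of 2 over 2 genes, 261 and 218 with a sum of at least 3 from 1 gene, and 13 and 8 that only a UMI of Cd4 kept out.

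The members carried the transcripts of T cells. Each of the 349 Control and 349 SAP members had at least 1 UMI of Cd3d, Cd3e, Cd3g or Cd247, which encode the signalling chains of the T cell receptor. So did 348 Control and 345 SAP matched barcodes. In level, Cd3e and Cd3g were lower in members than in matched barcodes, with log2 folds of -0.48 and -0.61 that passed the test described below. Of 10 measured genes of the receptor complex and its proximal kinases, 4 were lower (Cd3e, Cd3g, Zap70 and Lat) and 0 higher. Before thinning, 94.6% of Control members and 97.4% of the 345 paired SAP members had a UMI of Cd3e, against 31.4% and 37.9% of the barcodes that the filter on the pseudogene Rps19-ps6 removed, used here as the background of free RNA. After thinning to 1000 UMIs, Cd3e was found in 64.8% of Control members (59.5 to 69.8) and 68.5% of SAP members (63.3 to 73.4). In the background barcodes deep enough for this, Cd3e was then found in 6 of 24 in Control and in 6.90% of 58 in SAP. These background barcodes had median depths of 4398 and 23991.5 UMIs before thinning, and may also hold transcripts of their own. Markers of other cells that such barcodes could hold differed in level. The 12 mast cell markers summed to 8.20 CPM in Control members and 13.6 CPM in SAP members, against 5.89 and 11.95 CPM in matched barcodes. Of them, 9 had no UMI in the paired members of either library. Cpa3, a mast cell protease gene, had 0 Control and 1 SAP UMIs in members, against 4 and 2 in matched barcodes. The 12 markers of type 3 innate lymphoid cells summed to 59.2 and 88.7 CPM against 60.7 and 59.2 CPM. Of these, 3 (Il22, Il23r and Nrp1) had no UMI in the paired members of either library, and Il7r, which T cells also express, had 93 and 138 UMIs. Ncr1, which marks NK cells and type 1 innate lymphoid cells, had 0 Control and 5 SAP UMIs, but the 12 markers of these cells summed to 429 and 431 CPM against 562 and 721 CPM, with 257 and 309 UMIs of Itga1 and 118 and 126 of Tbx21, which T cells of the gut also express. The 14 dendritic cell and macrophage markers summed to 77.3 and 102 CPM against 138 and 114 CPM. Of them, 7 had no UMI in members (Xcr1, Clec9a, Flt3, Siglech, C1qa, Lyz2 and Adgre1), Itgax had 36 and 39 UMIs, Cd74 29 and 45, and Batf3 42 and 65. The part of such cells in the results was not tested.

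Transcripts of both receptor classes were found among the members. After thinning to 1000 UMIs, Trdc, the constant region of the delta chain, was found in 32.1% and 33.8% of members, against 1 of 24 Control and 0 of 58 SAP background barcodes (upper 95% bound 6.16%), and Trac, that of the alpha chain, in 28.1% and 23.3% against 1 of 24 and 2 of 58. Unthinned, 209 of 349 Control members and 207 of 345 SAP members had a UMI of Trdc, against 14.3% and 15.2% of background barcodes, and 65.0% and 61.7% had one of Trac, against 34.3% and 18.2%. A UMI of Trdc without any of Trac was found in 29.5% of Control members (24.8 to 34.6) and 30.1% of SAP members (25.3 to 35.3), against 17.8% and 16.8% of matched barcodes. Trac without Trdc was found in 34.7% and 31.9% of members and in 49.0% and 44.9% of matched barcodes. Both transcripts were found in 30.4% and 29.9% of members, close to the 28.4% and 30.7% of matched barcodes, so these calls by presence of a UMI do not sort cells cleanly. In summed UMIs Trdc stood at 505 CPM (UMIs of the gene per 1000000 UMIs of the sum) in Control members and 532 CPM in matched barcodes, and at 558 and 478 CPM in SAP, a log2 fold of 0.09 ± 0.07 (SE) that did not pass the test described next. Neither did Trgc1, Trgc2, Trbc1 or Trbc2. Trac did, at a log2 fold of -0.49 ± 0.07 (adjusted p = 2.18e-06). Cd8a without Cd8b1, the pattern of CD8 alpha pairs, was found in 53.9% and 57.1% of members against 68.5% and 71.3% of matched barcodes, and no CD8 chain in 36.1% and 33.9% against 18.1% and 12.8%.

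Which transcripts went with the 3 genes was tested on 4 sums of UMIs, members and matched barcodes of each library, with edgeR's quasi-likelihood test and the library as a block. Cells are not replicates, so the test reads the spread between libraries, which also differ in condition, and has 1 residual degree of freedom besides the spread shared over genes. Of 5904 genes tested, 534 (9.04%) were higher and 486 (8.23%) lower in members at an adjusted p under 0.05. In 1019 of these 1020 genes the ratio of members to matched barcodes lay on the same side of 1 in both libraries. At least 2-fold apart were 96 higher and 117 lower genes, and the median log2 fold over all tested genes was -0.003. DESeq2's Wald test on the same sums called 154 higher and 85 lower genes.

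**Figure D1:**
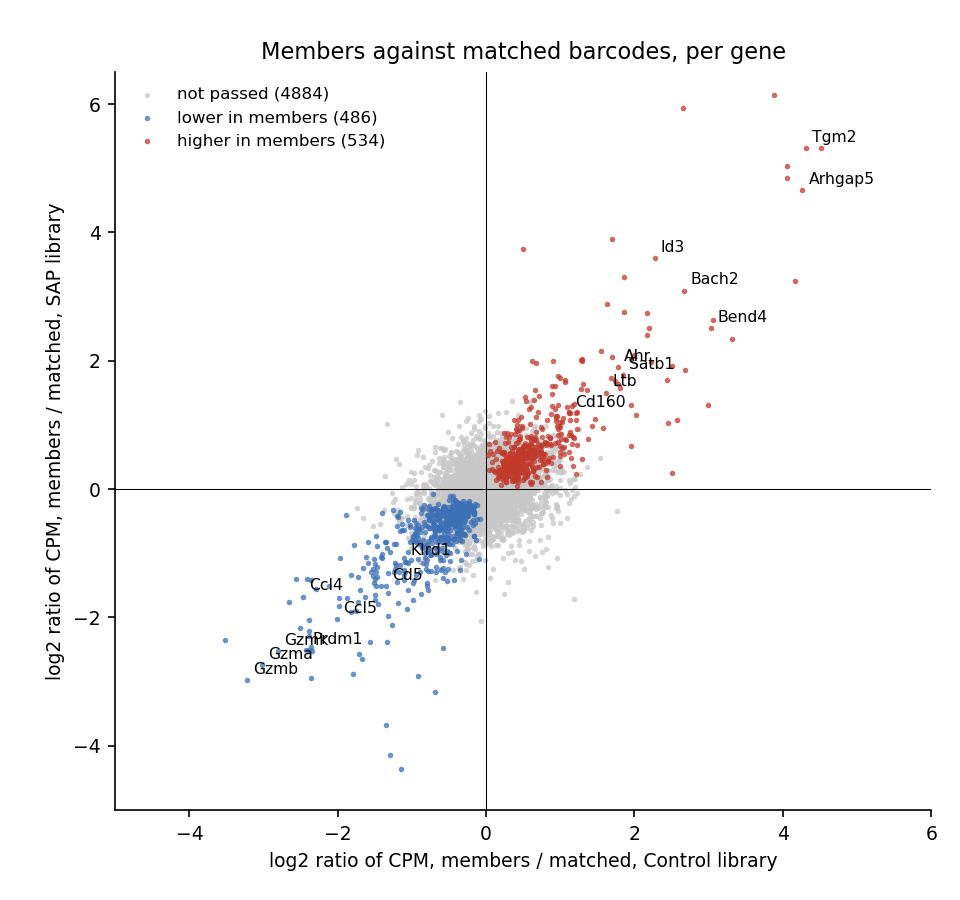
Log2 ratio of CPM, members over matched barcodes, in the Control library (x axis) and the SAP library (y axis); each point is 1 of 5904 tested genes, coloured by the edgeR call. Called genes lie along the diagonal, with the granzyme genes at the lower left and Tgm2, Arhgap5, Bach2 and Id3 at the upper right; 11 genes without a finite ratio or beyond the axes are not drawn.

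Genes of the killing granules of gut T cells were lower in members. Of 13 measured granule and killing genes, 11 were lower in members and 1, the lysosomal membrane gene Lamp1, was higher, and the list's median log2 fold was -0.64. Gzma, which encodes granzyme A, stood at 3615 CPM in Control members against 29374 CPM in matched barcodes, and at 4182 against 28097 CPM in SAP, a log2 fold of -2.87 ± 0.06 (adjusted p = 8.20e-24). Gzmb, granzyme B, stood at 566 against 5305 CPM and at 747 against 5878 CPM, a log2 fold of -3.08 ± 0.06 (adjusted p = 3.70e-24). In both libraries the members were low and the matched barcodes high for both granzymes. Gzmk fell by 2.60 on the log2 scale, Gzmc by 2.78, the pore-forming perforin gene Prf1 by 1.77 and the death ligand gene Fasl by 1.30. Gzmc rested on few UMIs, 1 and 11 in members against 40 and 43. Ctsw, a cathepsin of killer cells, did not pass.

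Most members had next to no Gzma, and the median of those that had more was below that of the matched barcodes too. The median member had 2.23 Gzma UMIs per 10000 in Control and 1.90 in SAP, against 271 and 260 in the median matched barcode. Members' values ran on above the low end without a clear gap. A boundary of 10 per 10000, set after the values were seen, split them into a low and a high range. By it, 279 of 349 Control members (79.9%, 75.4 to 84.0) and 274 of 345 SAP members (79.4%, 74.8 to 83.6) had fewer than 10 per 10000. Of matched barcodes, 24 (6.88%) and 15 (4.35%) did. The other members, 70 in Control and 71 in SAP, held 96.1% and 97.3% of the members' Gzma UMIs, with medians of 88.6 and 104 per 10000, against 298 and 266 in the matched barcodes of that range. These medians pool unlike sets. In that range members with Xcl1 and Kit had medians of 251 and 232, those with Xcl1 and Tcf7 48.8 and 30.0, those with Kit and Tcf7 98.4 and 103, and those with all 3 genes 36.8 and 84.5. Thinned to 1000 UMIs, a UMI of Gzma was found in 33.0% of Control members (28.04 to 38.2) and 30.0% of SAP members (25.2 to 35.2), against 33.3% and 27.6% of the background barcodes and 93.7% and 95.9% of matched barcodes. Unthinned, 62.8% and 57.7% of members had one, against 68.6% and 81.8% of background barcodes. Thinned, the members lay close to the background barcodes, whose 95% intervals are wide at 24 and 58 barcodes (15.6 to 55.3 and 16.7 to 40.9). Some background barcodes held much Gzma themselves, since 9 of 35 in Control and 9 of 66 in SAP had at least 10 per 10000 and held 87.3% and 60.4% of its UMIs there, and the unthinned SAP background was far deeper than the members. Whether the members' low range is free RNA was not tested.

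**Figure D2:**
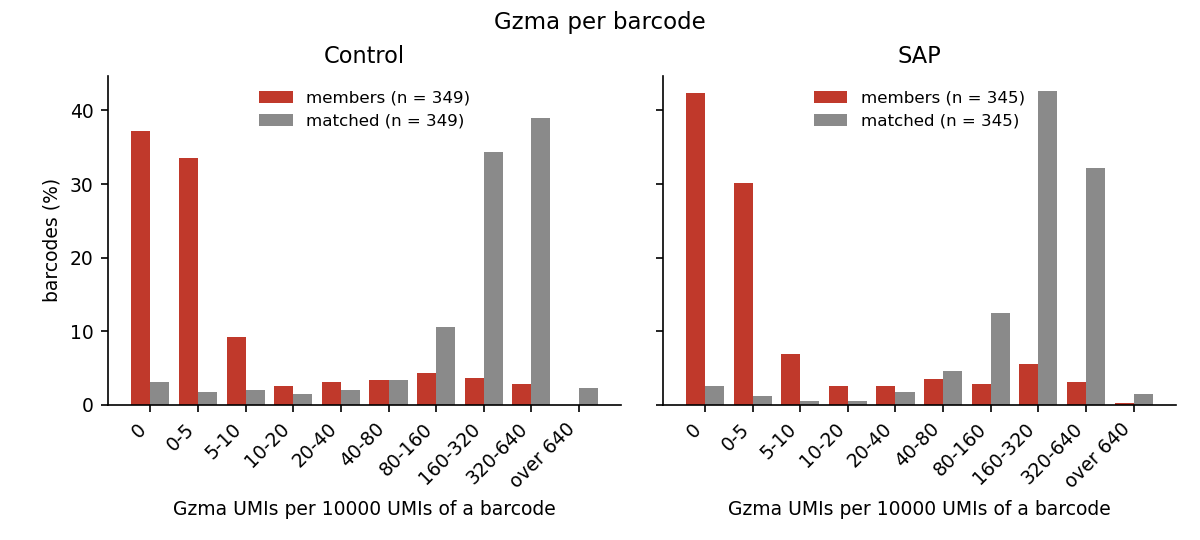
Share of barcodes (y axis, %) by Gzma UMIs per 10000 UMIs (x axis), for members and matched barcodes of each library. Most members have fewer than 10 per 10000, while most matched barcodes lie above 160.

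The chemokine and cytokine genes moved the same way for the most part. Ccl5 stood at 10381 against 41712 CPM in Control and 9854 against 40034 CPM in SAP (log2 fold -1.996 ± 0.05, adjusted p = 4.56e-22), Ccl4 fell by 2.05 on the log2 scale and Ccl3 by 1.06. Ifng, the interferon gamma gene, stood at 83.8 against 234 CPM and 78.0 against 223 CPM, a log2 fold of -1.48. Ltb, which encodes lymphotoxin beta, was the 1 measured gene of this list that was higher, at 343 against 112 CPM in Control and 290 against 102 CPM in SAP (log2 fold 1.58 ± 0.09, adjusted p = 1.59e-13). Tnf and Tgfb1 did not pass. Xcl1 itself is in the list and was left out because it set the members. Csf2, a growth factor gene below the filter on low counts, had 30 UMIs in 15 Control members and 15 UMIs in 9 SAP members, against 1 and 0 UMIs in matched barcodes.

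Gzma and Ccl5 were lower, and Cd160 higher, at high than at low summed UMIs of the 3 genes, and the levels already differed between steps below the member threshold. Among Control barcodes without Cd4, Gzma stood at 26587 CPM where the sum was 0, 23625 where it was 1, 9028 where 2 genes gave a sum of 2, 6481 in members with a sum of 3, and 2684 in members with a sum of 13 or more. The SAP values at these steps were 25926, 22521, 11081, 5556 and 2899 CPM. Within the members the order was not even, since Gzma stood at 2864 and then 3912 CPM in Control at sums of 4 to 6 and 7 to 12, and at 6076 and then 1784 CPM in SAP. A high sum from 1 gene went with a higher level: barcodes with at least 3 UMIs of Xcl1 and no Kit or Tcf7 had 13485 CPM of Gzma in the Control library and 14583 in the SAP library. Cd160, which encodes a receptor of gut killer cells, went from 162 to 476 CPM in Control and from 189 to 520 CPM in SAP between the first and last steps. The median depth also went up along the steps, from 2872 to 5512.5 UMIs in Control and from 3075 to 5824.5 in SAP, and its part in these levels was not tested. These steps are a description, since the 3 genes define them.

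**Figure D3:**
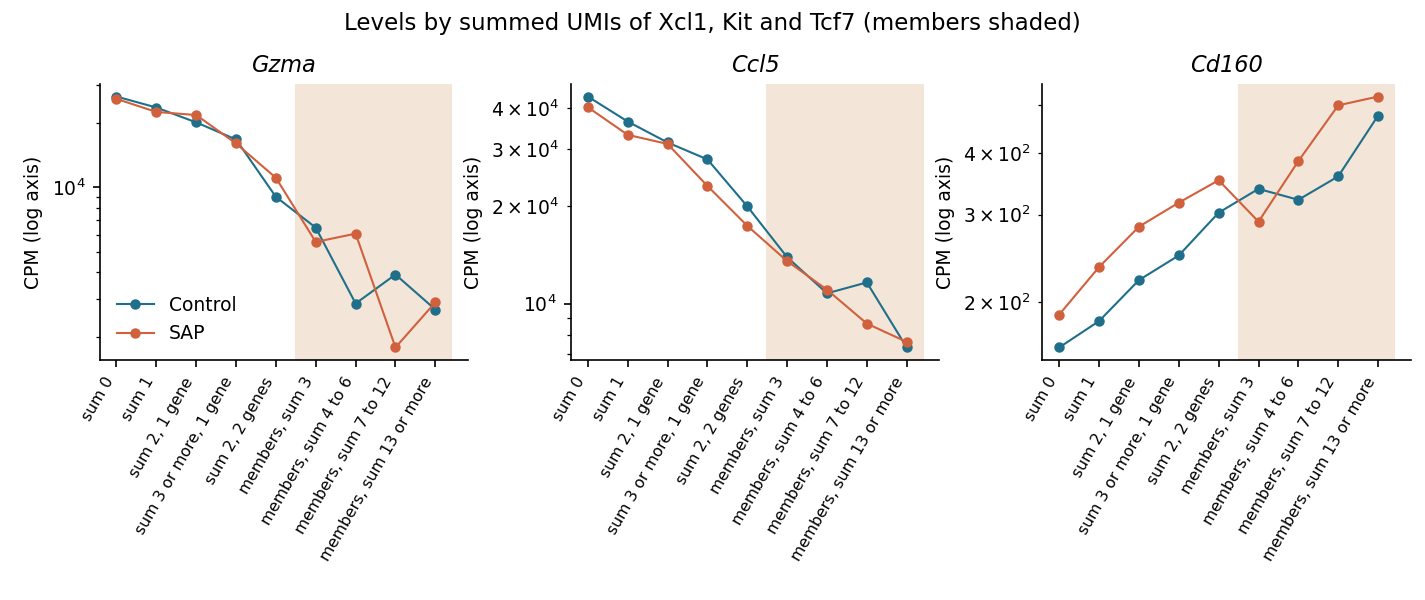
Gzma, Ccl5 and Cd160 (CPM, log axis) by the summed UMIs of Xcl1, Kit and Tcf7, for barcodes without Cd4 in each library; the shaded steps are members. Between the first and the last step Gzma goes from 26587 to 2684 CPM in Control and from 25926 to 2899 CPM in SAP, with ups and downs among the members, and Cd160 goes from 162 to 476 and from 189 to 520 CPM.

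Stem-like and central memory genes were higher in members where they passed the test. Of 11 measured stem-like and central memory genes, 6 were higher and 0 lower, with a median log2 fold of 0.88. Id3, an inhibitor of E proteins, had 102 against 21 UMIs in Control and 110 against 9 in SAP, a log2 fold of 2.82 ± 0.27 (adjusted p = 5.23e-09). Bach2, a repressor that restrains effector genes, had 64 against 10 and 43 against 5 UMIs, a log2 fold of 2.82 ± 0.39 (adjusted p = 2.56e-06). The other 4 were Satb1, a chromatin organiser of thymocytes (log2 fold 1.82), Bcl6, a repressor (0.66), the homing receptor gene Ccr7 and Lef1. In members with Xcl1 and Kit and no Tcf7, Satb1 had a log2 fold of 0.30 that did not pass. Ccr7 rested on 18 and 38 UMIs in 12 members of each library, against 1 and 4 UMIs in matched barcodes. Lef1, the sister gene of Tcf7, had 33 against 6 UMIs in Control and 37 against 18 in SAP, a log2 fold of 1.57 ± 0.41 (adjusted p = 0.00734). Prdm1, which encodes the effector factor Blimp-1, was lower, with 30 against 160 and 32 against 181 UMIs, a log2 fold of -2.45 ± 0.17 (adjusted p = 1.75e-11). Tbx21 and Gata3, the factors of type 1 and type 2 T cells, had log2 folds of -0.50 and -0.57. Il7r, Klf2, Cxcr3, Foxp1 and Ikzf1 did not pass. Slamf6, a surface marker of stem-like T cells, was below the filter with 20 and 18 UMIs in members against 2 and 2, as was Pdcd1, an inhibitory receptor gene, with 30 and 27 against 1 and 2. Most measured inhibitory receptor genes went the other way. Of 8, Lag3 (log2 fold -0.85), Ctla4, Cd244a, Entpd1 and Cd200r1 were lower and only Cd160 higher, with a median log2 fold of -0.67.

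In the pathways of TCF-1 and KIT, 8 genes were higher and 3 lower. Of 11 measured genes of the TCF-1 and beta-catenin pathway, 4 were higher (Lef1, Ctnnb1, Tle4 and Myc) and 1 lower (the cyclin gene Ccnd2), with a median log2 fold of 0.11. Ctnnb1, beta-catenin itself, stood at 153 against 97.9 CPM in Control and 143 against 93.9 CPM in SAP, and Myc at 58.6 against 12.97 and 54.2 against 10.2 CPM. Axin2, a classical target of this pathway, did not reach the filter. Of 16 measured genes downstream of KIT, 4 were higher, the transcription factor genes Stat5a and Stat5b and the brakes Cblb and Socs1, and 2 were lower, the kinase subunits Pik3r1 and Pik3cd, with a median log2 fold of 0.10. Stat5a stood at 148 against 73.7 CPM in Control and 105 against 53.5 CPM in SAP, a log2 fold of 1.005 ± 0.12 (adjusted p = 1.97e-07). Kitl, the gene of the KIT ligand, had no UMI in the members.

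Among the genes ranked by the smaller of their ratios in the 2 libraries, the 14 highest included Batf3, Tgm2, Arhgap5, Tnfrsf26, Pak1, Ccr7, Bach2, Hspb1, Bend4, Tmem108, Id3, Clec2i and Myc. All 14 passed the test, but the ranking already asked for both libraries' intervals outside 1, so passing adds little support. Several had almost no UMI in matched barcodes and met the filter of 20 CPM through members alone. Batf3, a partner of AP-1 factors that also marks dendritic cells, had 42 UMIs in 28 Control members and 65 in 39 SAP members, against 2 and 0 in matched barcodes, a ratio of 20.9 (5.43 to 178) in Control and at least 21.5-fold in SAP against a floor of 3 UMIs per library. Tgm2, a transglutaminase gene, had 20 and 40 UMIs against 1 and 1, ratios of 19.9 (3.18 to 824) and 39.7 (6.73 to 1607). Arhgap5, which encodes a regulator of small GTPases, had 58 and 51 UMIs against 3 and 2, ratios of 19.2 (6.26 to 95.9) and 25.3 (6.66 to 215). The kinase gene Pak1 had 50 and 29 UMIs against 3 and 1, ratios of 16.6 (5.35 to 83.0) and 28.8 (4.77 to 1176). Tnfrsf26, a TNF receptor family gene, had 50 and 33 against 3 and 1, ratios of 16.6 (5.35 to 83.0) and 32.8 (5.48 to 1332). The UMIs of these 5 genes were spread over 19 to 42 members in each library. Hspb1, a heat shock gene, was different: its 38 Control UMIs came from 5 members and its 62 SAP UMIs from 7, with 19 and 30 of them in 1 cell.

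Better measured in both classes were Bend4 and Clec2i. Bend4, a gene of a DNA-binding domain family, had 198 and 240 UMIs against 24 and 42, a log2 fold of 2.74 ± 0.16 (adjusted p = 3.88e-13). Clec2i, which encodes a lectin ligand of NK receptors, had 171 and 143 UMIs against 37 and 25, and Tmem108, a membrane protein gene, 50 and 56 against 5 and 11. The ratios of members to matched barcodes for Bend4, Clec2i and Tmem108 ran from 4.59 (Clec2i, Control) to 9.94 (Tmem108, Control) over the 2 libraries.

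The 14 lowest by the same ranking were Gzmb, Gzma, Gzmk, Prdm1, Ptpn5, Spp1, Tnfrsf4, Gpx8, Cpd, Mt2, Glrx, Scin, Metrnl and Ccl5. All 14 passed, under the same condition on the intervals. Spp1, the osteopontin gene, had 16 and 11 UMIs in members against 82 and 60, and Glrx, a redox enzyme gene, 28 and 31 against 146 and 143. The costimulatory receptor gene Tnfrsf4 rested on few cells, since 19 of its 38 matched UMIs in SAP lay in 1 cell. The phosphatase Ptpn5, the peroxidase Gpx8, the peptidase Cpd, the metallothionein Mt2, the actin-severing Scin and the secreted factor Metrnl had log2 folds between -2.74 and -2.17.

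Genes of residence in the gut epithelium were split. Of 14 measured, 3 were higher and 6 lower, and the median log2 fold was -0.17. Ahr, a receptor for dietary and microbial ligands that gut T cells need to persist, stood at 207 against 60.7 CPM in Control and 217 against 58.0 CPM in SAP (log2 fold 1.86 ± 0.11, adjusted p = 3.06e-13). The gut homing genes Itga4 and Ccr9 were higher, with log2 folds of 0.84 and 0.47. Itgae, the integrin chain that binds E-cadherin on epithelium, was lower, at 357 against 518 CPM and 412 against 642 CPM, and Itgb7, Itga1, Cxcr6 and Prdm1 were also among the lower genes. Innate-like intraepithelial genes were mostly lower, 10 of 15 against 3 higher. Cd160 was among the 3 higher ones, at 382 against 176 CPM in Control and 437 against 192 CPM in SAP (log2 fold 1.17 ± 0.08, adjusted p = 6.08e-12), beside the NK receptor gene Klrk1 (1.60, with 49 and 36 UMIs against 12 and 16) and the factor gene Ikzf2 (0.36). The adaptor gene Tyrobp had a log2 fold of -1.01, the NK receptor gene Klrd1 -1.10, Cd8a -0.66 and the adaptor gene Fcer1g -0.43.

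Of 10 measured proliferation genes, 9 were lower and 0 higher, with a median log2 fold of -1.54, and several rested on few cells. H2az1, a histone variant gene, did not, with 1749 against 2010 UMIs in Control and 1480 against 1765 in SAP. Stmn1, a tubulin-binding protein gene, had 60 against 193 and 33 against 97 UMIs. Mki67, a marker of dividing cells, had 45 UMIs in 8 Control members, 34 of them in 1 cell, and 6 UMIs in 5 SAP members, against 72 in 20 and 53 in 23 matched barcodes. Pclaf, a replication factor gene, had 40 UMIs in 4 Control and 2 UMIs in 2 SAP members. Conventional T cell surface genes were also mixed: of 8, Cd5, Cd6, Icos and Ctla4 were lower, Thy1 and Cd27 higher, and Cd8b1 and Cd28 did not pass. Matched barcodes could hold Cd4 while members could not, and the part of this in Cd6, Icos and Ctla4 was not examined. Thy1 was not higher in every set of members, with log2 folds of -0.77 in members with all 3 genes and -0.46 in those with Xcl1 and Kit, neither of which passed, and it did not pass DESeq2's Wald test. Among immediate early and dissociation genes, 5 of 14 were higher and 2 lower; Atf3, a stress factor gene, was highest with a log2 fold of 2.22, and Fos had 0.46. The immunoglobulin genes Igkc and Jchain were lower in members by the fit, but 5428 of 5477 Igkc UMIs and 602 of 611 Jchain UMIs of the Control matched barcodes lay in 1 cell. In SAP, Igkc had 8 against 25 UMIs and Jchain 1 against 0.

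**Figure D4:**
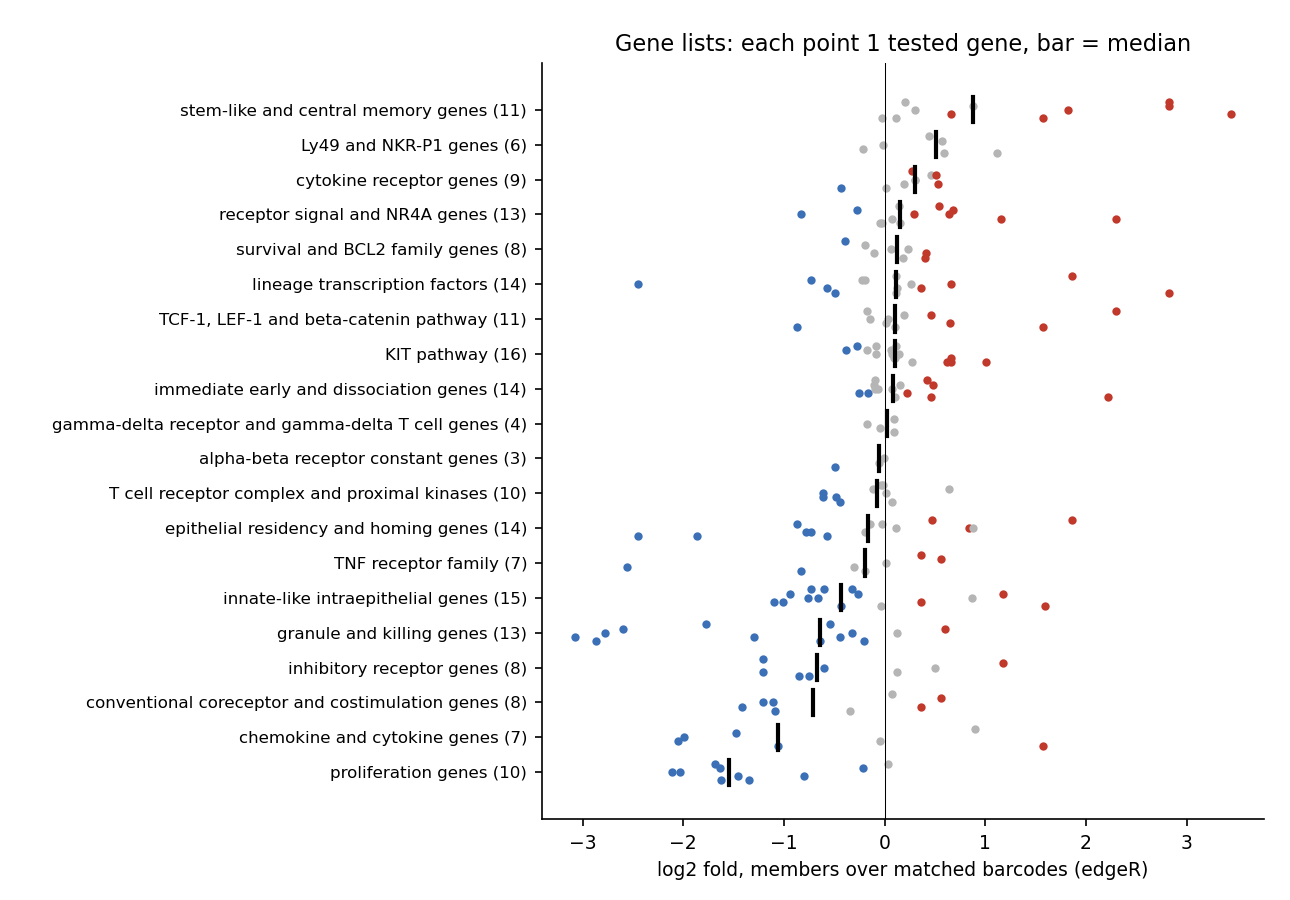
Log2 fold of members over matched barcodes (x axis, edgeR) for each tested gene of the T cell gene lists (y axis; number tested in brackets); red points are higher, blue lower and grey did not pass, and the bar is the list's median. The medians run from -1.54 for proliferation genes and -1.06 for chemokine and cytokine genes to 0.88 for stem-like and central memory genes.

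The members were not 1 uniform population. Those with Xcl1 and Tcf7 and no Kit, 101 in Control and 107 in SAP, were compared with those with Xcl1 and Kit and no Tcf7, 78 and 95, in the same kind of fit, a comparison chosen after the data were seen. Their median depths were 4066 and 4486 UMIs against 4307.5 and 4874. Of 4212 genes tested, 178 (4.23%) were higher and 117 (2.78%) lower in the members with Tcf7. With total UMIs as the only scaling the counts were 114 and 133, so 46.2% of called genes were higher in place of 60.3%, and the median log2 fold over all tested genes moved from -0.007 to -0.13. The genes named for this comparison were chosen after their values were seen.

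Members with Xcl1 and Tcf7 carried more of the genes of conventional T cells than members with Xcl1 and Kit. Of 7 measured conventional coreceptor and costimulation genes, 6 were higher than in members with Xcl1 and Kit and 0 lower, with a median log2 fold of 2.55; with total UMIs as the scaling the same 6 were called. Cd8b1, the CD8 beta chain, had 43 UMIs in 18 Control cells and 82 in 24 SAP cells, against 4 UMIs in 2 and 7 in 1, a log2 fold of 3.50 ± 0.36 (adjusted p = 2.72e-19). Cd5, a brake on receptor signalling, had 35 and 32 UMIs against 1 and 2, and its relative Cd6 had 55 and 87 against 6 and 5. Il7r, the receptor of a T cell survival cytokine, stood at 145 and 149 CPM against 10.8 and 35.8, and Thy1, a surface marker of conventional T cells, at 139 and 139 against 8.11 and 39.7. Cd28 and Ctla4 completed the 6. Ifng stood at 215 and 197 CPM against 21.6 and 43.7 CPM, a log2 fold of 2.71 ± 0.28 (adjusted p = 1.51e-19). DESeq2's Wald test called 79 higher and 14 lower genes, and it gave an adjusted p to 374 of the 4212 genes, with none for Cd8b1, Cd5, Cd6, Il7r, Thy1, Cd28, Ctla4 or Ifng. Against their own matched barcodes, members with Xcl1 and Tcf7 were higher for Cd8b1 (1.24), Thy1 (1.61) and Il7r (1.24), while Cd5 (-0.006) did not pass. Members with Xcl1 and Kit were lower than theirs for Cd8b1 (-2.55) and Cd5 (-4.26). Of members with Xcl1 and Tcf7, 19 of 101 in Control and 17 of 107 in SAP had Cd5, and 45 and 39 had Trdc.

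Members with Xcl1 and Kit carried more of the innate-like genes and of Gzma and Gzmb. Of 13 measured innate-like intraepithelial genes, 8 were lower in members with Xcl1 and Tcf7 and 0 higher, with a median log2 fold of -0.75. Among 10 measured granule and killing genes only 2, Gzma and Gzmb, were lower and 0 higher, with a median log2 fold of -0.27. In members with Kit, Tyrobp stood at 641 (Control) and 723 (SAP) CPM, against 181 and 201 CPM in those with Tcf7. Fcer1g stood at 1314 and 1508 CPM against 678 and 515, and Klrd1 at 776 and 652 against 293 and 312. Gzma stood at 10239 and 11130 CPM against 2288 and 1814 CPM, a log2 fold of -2.26 ± 0.06 (adjusted p = 4.49e-267). With 1 residual degree of freedom, that p-value rests largely on the spread that the fit shares over genes. It does not measure the spread of Gzma between cells, and most Gzma UMIs lay in a minority of cells in both sets. In members with Xcl1 and Kit, 26 of 78 Control and 36 of 95 SAP cells had at least 10 Gzma UMIs per 10000, with medians among them of 251 and 232, against 24 of 101 and 26 of 107 members with Xcl1 and Tcf7, with medians of 48.8 and 30.0. Trac, Trdc and Cd160 did not pass in this comparison, while Trgc1, a gamma chain constant region, was lower in members with Tcf7 (log2 fold -0.93). Mcm8, a helicase gene, also passed as lower in members with Tcf7, on 1 against 85 UMIs in Control and 0 against 0 in SAP, and 84 of the 86 UMIs of all Control members lay in 1 cell.

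Each set was also set against its own matched barcodes, and Gzma was lower in each. The log2 fold of Gzma was -1.53 in members with Xcl1 and Kit, -3.58 with Xcl1 and Tcf7, -4.07 with Kit and Tcf7 and -4.53 with all 3 genes, and each passed the test. Of the differences between sets, the one tested is that between the first 2, given above. Ltb and Ahr passed in all 4 sets, with log2 folds from 1.19 to 1.69 and from 1.45 to 2.66. Cd160 was higher in 3 sets, with log2 folds from 1.11 to 1.63, and had 0.57 without passing in members with Kit and Tcf7. Ifng was lower in 3 sets, with log2 folds from -3.62 to -1.68, while members with Xcl1 and Tcf7 had a log2 fold of -0.03 that did not pass. Prdm1 was lower in 3 sets, from -4.03 to -2.56, and had -0.997 without passing in members with Xcl1 and Kit. Satb1 was higher in 3 sets, from 1.82 to 2.45, and had 0.30 without passing in members with Xcl1 and Kit. Kit with Tcf7 gave the lowest Tyrobp, at 94.1 (Control) and 33.6 (SAP) CPM, and the highest Satb1, at 257 and 220 CPM.

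**Figure D5:**
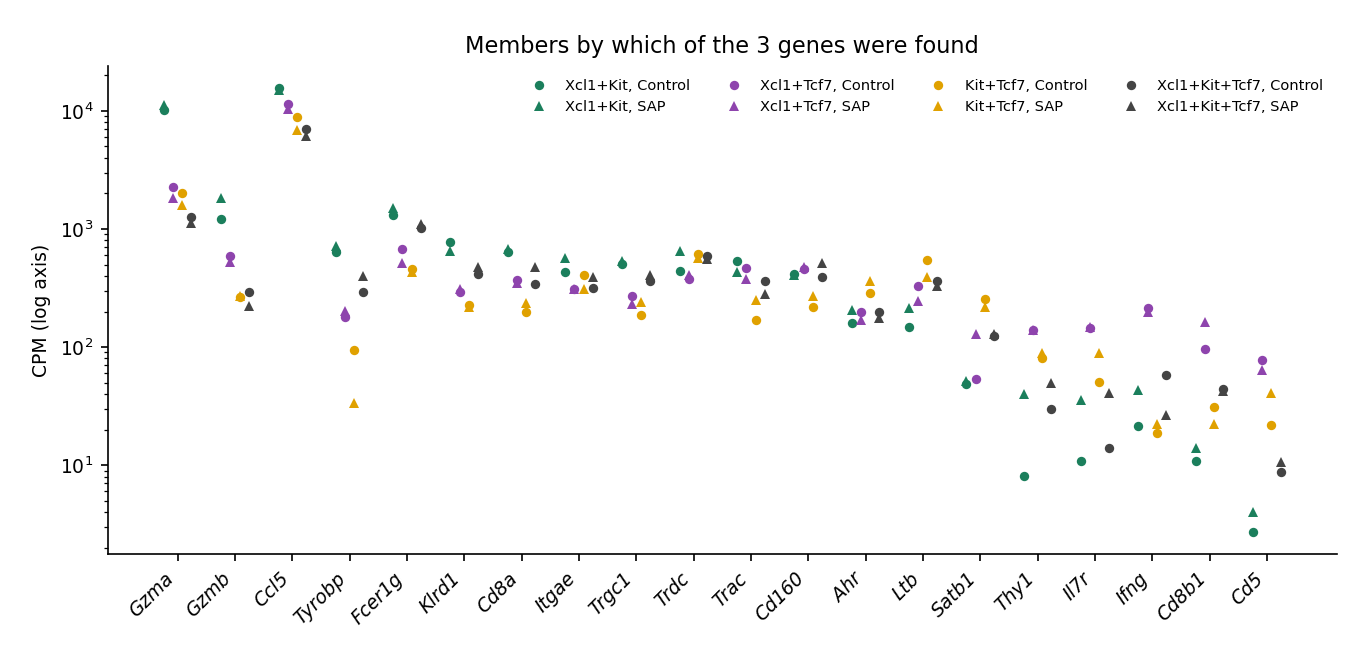
CPM (y axis, log) of 20 genes in members grouped by which of Xcl1, Kit and Tcf7 were found (colours), with circles for Control and triangles for SAP. The Control and SAP points of a set lie close together for most genes, while Cd5, Cd8b1, Ifng, Il7r and Thy1 are highest in members with Xcl1 and Tcf7 and Gzma, Tyrobp and Klrd1 in those with Xcl1 and Kit.

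Gzma was lower in members with and without a transcript of the delta chain. Where every member and matched barcode had a UMI of Trdc, the log2 fold of Gzma was -3.24; where none had, it was -2.75; and where all had Cd8b1, it was -3.38. Cd160 was higher in all 3 comparisons, with log2 folds of 1.44, 0.79 and 1.11. Ahr was higher too, with 1.99, 1.56 and 1.83. Ifng turned from -1.48 over all members to 0.08 without passing where all barcodes had Cd8b1.

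The count of genes that differed in level between SAP and Control members depended on the limit on low values. Of 2901 genes with enough UMIs, 25 (0.862%) were higher in SAP by 1.5-fold or more, 21 (0.724%) were lower by as much, and 2281 lay within 1.2-fold. At 2-fold there were 0 higher and 4 lower genes. With a limit of 20 CPM in place of 50 CPM, 268 genes were higher and 118 lower at 1.5-fold, and after thinning to 1000 UMIs, 84 and 62. No test was possible with 1 library each, and the ratios below carry intervals for counting error only. Over 32 followed genes with enough UMIs, the interval held 1 for 12, and the same share over all 2901 genes was not computed. An interval outside 1 can go with a small ratio where counts are high, as for Ccl5 at 0.946 (0.926 to 0.966). The ratios of the followed genes ran from 0.695 (Tnfrsf9) to 1.40 (Il7r).

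Among the 6 highest ratios was Hvcn1. Hvcn1, a proton channel gene, had 59 Control and 111 SAP UMIs, a ratio of CPM of 1.75 (1.26 to 2.44), and 1.21 (0.884 to 1.66) in matched barcodes. Chmp5, a gene of membrane remodelling, had 1.74, the splicing factor gene Zrsr2 1.71, the dynactin subunit gene Actr1b 1.70, the zinc finger gene Zfp871 1.69 and Senp2, a SUMO protease gene, 1.66; after thinning to 1000 UMIs the log2 ratio of Senp2 turned to -0.21. In matched barcodes Zrsr2 had a ratio of 1.58 (1.14 to 2.20), Zfp871 1.32 (1.04 to 1.68) and Senp2 1.36 (1.06 to 1.74). The differences of these genes were thus not limited to members. For Chmp5 (1.08, 0.808 to 1.44) and Actr1b (1.12, 0.823 to 1.53) the interval in matched barcodes held 1. Among the 6 lowest ratios, 4 rested in part on 1 cell. Mcm8 had 86 Control and 5 SAP UMIs, and the histone gene H2ac8 had 86 and 13, with 44 of the Control UMIs in 1 cell. H2ac24 had 159 and 38 UMIs, with 72 in 1 Control cell, and the ratios in matched barcodes were also below 1, 0.498 for H2ac8 and 0.356 for H2ac24. H2bc4 had 121 and 59, with 29 in 1, and 1.15 in matched barcodes. Clcn4, a chloride transporter gene, had a ratio of 0.537 (0.374 to 0.763) and Apaf1, the apoptosome gene, 0.571 (0.415 to 0.781), with at most 8.96% of UMIs in 1 cell in either library.

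Among genes of T cell function, summed Gzmb was higher in SAP members, with 752 CPM against 566 CPM in Control members. The ratio was 1.33 (1.22 to 1.44), beside 1.11 (1.08 to 1.14) in matched barcodes. By set, SAP was clearly above Control only in members with Xcl1 and Kit, at 1831 against 1219 CPM. Gzmb stood at 269 against 263 CPM with Kit and Tcf7, 525 against 593 with Xcl1 and Tcf7, and 222 against 291 with all 3 genes. A UMI of Gzmb was found in 104 of 345 paired SAP members and 110 of 349 Control members. Il7r had a ratio of 1.40 (1.07 to 1.84) beside 0.925 (0.687 to 1.24), and Tyrobp 1.26 (1.12 to 1.42) beside 0.992 (0.915 to 1.08). Tnfrsf9, a costimulatory receptor gene, had 0.695 (0.529 to 0.910), Ltb 0.829 (0.735 to 0.934) and Ikzf2 0.883 (0.835 to 0.934). Members with Xcl1 and Kit, the set richest in Gzmb and Tyrobp, were 22.3% of Control members (18.1 to 27.1) and 27.2% of SAP members (22.6 to 32.2). That share overlaps between the libraries, and its part in the ratios of Gzmb and Tyrobp was not tested. Cd160 had 1.15 (1.03 to 1.27), Ifng 0.922 (0.726 to 1.17) and Trdc 1.08 (0.987 to 1.19), and for Ifng and Trdc the interval held 1.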

How the data were processed

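For each library the authors deposited raw UMI counts per gene and barcode as a sparse matrix; per the file headers, the writer was Cell Ranger 7.1.0. The names mm10 and Seurat stand in the submitters' processing notes, and no source used here gives the barcode filter before deposit. The members and gene lists were chosen with earlier results of these data known. Barcodes were kept with at least 500 UMIs, 300 genes, at most 10% mitochondrial UMIs and at most 2 UMIs of Rps19-ps6. Members were paired with barcodes lacking the 3 genes, deepest first, within 10% of the total. Summed counts were tested with edgeR 4.0.16 (TMM, quasi-likelihood, Benjamini-Hochberg) for genes with 20 CPM in 1 of the 4 sums and 50 UMIs in all, leaving out Xcl1, Kit, Tcf7, Cd4, Rps19-ps6 and mitochondrial genes from the test; DESeq2 1.42.0 was an alternative. The fit was tested on simulated counts. Ratios by library carry exact conditional binomial 95% intervals and shares exact Clopper-Pearson 95% intervals. SAP and Control members were compared for genes with 50 CPM in 1 library and 50 UMIs over both.

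Named genes were the 14 highest and 14 lowest by the smaller of the 2 libraries' ratios, with both intervals outside 1, the 6 highest and 6 lowest SAP over Control ratios, 47 fixed genes, and list members that passed; ribosomal, mitochondrial, receptor segment, Gm-numbered and Rik genes were left out of the ranking. The 26 lists hold 310 symbols, of which 1 was not found. A gene without a unique symbol, 980 in all, was named by its identifier. Scrublet ran in scanpy 1.11.5. Some genes counted here are not reported by name.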

Additional observations from a re-analysis of the deposited data

How the results depend on the processing

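The test between members and matched barcodes draws on 2 libraries that also differ in condition. It has 1 residual degree of freedom, so its p-values rest largely on the spread shared over genes and do not measure the spread between cells. The main counts were 534 higher and 486 lower genes. They were 154 and 85 with DESeq2's Wald test, 882 and 876 with all barcodes lacking the 3 genes in place of matched ones, 301 and 252 for members with all 3 genes, 188 and 135 after thinning to 1000 UMIs, and 354 and 331 without the library block, of which all were among the main calls. In sets added after the data were seen they were 193 and 123 without Trdc, 89 and 30 with Cd8b1, 79 and 51 for Xcl1 with Kit, 245 and 175 for Xcl1 with Tcf7, and 165 and 165 for Kit with Tcf7; these sets hold fewer cells and test fewer genes. Under the other 10 settings both counts stayed within 1.5 times. In 1 of these the matched barcodes also had no Cd4, and 567 genes were higher and 537 lower. With the scaling of total UMIs 520 genes were higher and 556 lower.

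Of 53 followed genes that passed, all kept their direction under the planned settings in which they were tested, except Thy1. Thy1 turned to -0.77 for members with all 3 genes, where 33 genes kept direction and call and 6 kept direction only. After thinning to 1000 UMIs these counts were 31 and 4. The rest of the 53 missed the filter on low counts in these 2 settings and were not tested there. In the added sets, with the log2 fold of the set after each gene, Tbx21 (0.35), Ifng (0.082), Il2rb (0.17), Cd7 (0.10) and Ikzf2 (-0.22) turned among barcodes with Cd8b1. Trac (0.013), Thy1 (-0.46), Fcer1g (0.11), Tbx21 (0.39), Tnfrsf9 (0.12) and Mki67 (0.041) turned in members with Xcl1 and Kit, and Ikzf2 (-0.35) in those with Xcl1 and Tcf7. The cause was not tested. With DESeq2's Wald test 9 of the 53 no longer passed, Hspb1, Thy1, Lef1, Tbx21, Gata3, Ccr9, Il2rb, Tnfrsf9 and Mki67. Without the Control library the log2 fold of Mki67 was -3.15, of Tnfrsf26 5.03 and of Pak1 4.85, and without SAP that of Ccr7 was 4.16 and of Gzmk -2.80.

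The share of members was 5.11% in Control and 5.82% in SAP for a sum of at least 4, 1.81% and 1.95% with all 3 genes, 1.58% and 1.34% thinned to 1000 UMIs, and 3.67% and 4.08% thinned to 2000. Between SAP and Control members, 268 genes were higher and 118 lower at 1.5-fold with a limit of 20 CPM, 44 were higher with a sum of at least 4, and 84 were higher and 62 lower after thinning, where Senp2 turned to -0.21. For Xcl1 with Tcf7 against Xcl1 with Kit, 114 genes were higher with total UMIs as the scaling, 79 were higher and 14 lower with DESeq2's Wald test, and 65 were lower without the library block. Tests within libraries had the library as a block; for SAP against Control, no paired analysis was possible because each has 1 library.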

Other observations

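Ribosomal protein genes, a group looked at only after the values were seen, were higher in members: 77 of 99 passed as higher and 0 as lower, with a median log2 fold of 0.36. Gzma and Ccl5 together took 1.40% of the UMIs of Control members against 7.11% of matched barcodes, and 1.40% against 6.81% in SAP. Between members with Xcl1 and Tcf7 and members with Xcl1 and Kit, 73 of 96 ribosomal protein genes were higher in the former and 0 lower, with a median log2 fold of 0.44, and 65 with total UMIs as the scaling. Whether these genes follow from the loss of abundant transcripts was not tested.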
